A study of Mus musculus with 23 samples.

Results

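Each mouse that carried an orthotopic tumor gave 2 RNA-seq libraries, one from the primary tumor and one from the liver, so that every gene could be followed in both tissues across the same animals. The genes described here are the 12749 of 48897 in the table that had 10 or more counts in all 9 tumors and all 9 matched livers, and for each of them the level in the tumor was correlated with the level in the liver of the same mouse. The 18 libraries came from mice M1, M2, M4, M5, M6, M7, M8, M10 and M12, each inoculated in the cecal serosa with CT26 cells, a transplantable mouse colon carcinoma line, as male BALB/c animals a few weeks old per the study's methods. The liver was collected before visible metastasis and is called pre-metastatic. Control livers of 5 sham-operated, tumor-free mice of the same study are given only for their levels. CT26 is 1 cell line, so the tumors share the line they grew from, and what made them differ was not tested.

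All genes in this comparison were measured as RPKM, which is the read count scaled to gene length and to the library's total. The agreement of both tissues was expressed as Spearman's rho over 9 mice, which ranks the mice in each tissue and runs from -1 to 1. The exact *p* of a gene was taken over all 362880 ways of pairing the tumors with the livers and was two-sided. A circadian clock runs in nearly all cells and drives daily cycles of the same genes in many organs. Interferons, secreted on detection of foreign or misplaced nucleic acid or by activated lymphocytes, act on distant tissues through the JAK and STAT proteins and induce a shared set of antiviral genes. Because the livers had been taken at differing phases of the clock, the mice were also divided by the liver level of *Dbp*, a clock output factor with a steep daily rhythm. Mice with a liver *Dbp* of 20 RPKM or more (M1, M2, M10 and M12) are called late and the other 5 early, and for the phase-removed correlation the ranks were centered within each phase.

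Libraries held between 47005276 and 70884436 counts in tumors and between 44587556 and 79773163 in livers, and no pair held identical counts. The tissues matched their labels: summed RPKM of 13 hepatocyte markers ranged from 63753 to 110684 in the matched livers and from 25.9 to 502 in the tumors. The tumors of M10 and M12 stood apart with summed hepatocyte markers of 282 and 502, against 25.9 to 123 in the other tumors, and *Alb*, the gene of serum albumin, was at 86.4 and 173 RPKM there and at 2.97 to 15.0 RPKM elsewhere. The mean correlations, and the named genes whose exact *p* rose above 0.05 over the other 7 mice, are therefore also given without M10 and M12. In bulk tissue, fewer cells of a type and less RNA per cell cannot be told apart.

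Tumor and liver of the same mouse shared a small part of their variation. The mean rho over the 12749 genes was 0.087 and the median 0.10, and the mean was farther from 0 than in nearly all re-pairings (exact two-sided *p* = 0.010 over all pairings of 9 mice). Of the genes, 59.1% had a rho above 0. At an exact *p* under 0.05, 473 genes (3.71%) had a positive rho and 202 (1.58%) a negative one. In 99 random re-pairings of tumors with livers, the positive count ran from 135 to 640 with a median of 264, and 3 of the 99 reached 473. The negative count of 202 was within the re-paired range of 140 to 470 and below its median of 262. After Benjamini-Hochberg adjustment over all genes, 0 genes (0%) passed, the lowest adjusted *p* being 0.35 by the exact test, while 675 passed unadjusted. The smallest exact *p* that 9 mice allow, 5.51e-06, is above 0.05 divided by 12749 (3.92e-06), so no gene could have passed alone. The single genes below are given as the ends of a ranking.

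**Figure D1:**
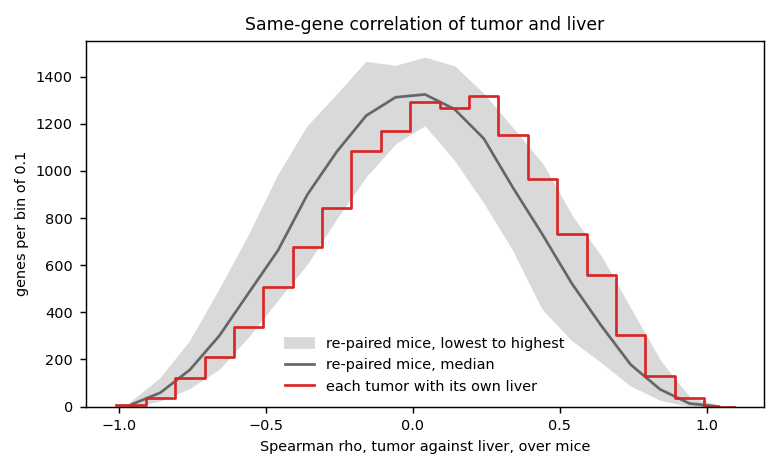
Number of genes per bin of Spearman's rho between tumor and liver over 9 mice. The red steps are tumors with their own livers, the gray line and band are the median and the range of 99 re-pairings, and the red steps lie to the right of the gray line, with a mean of 0.087.

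Centering the ranks within the early and late phases left the mean nearly as it was. This takes out only the split by liver *Dbp*, and clock variation within each phase stays. Liver *Dbp* still ran from 0.371 to 7.63 RPKM among early mice and from 30.9 to 84.1 among late ones. With ranks centered within phase the mean was 0.076 (exact two-sided *p* = 0.019 over 2880 re-pairings within phase), with 453 positive genes (3.55%) and 200 negative genes (1.57%) at an exact *p* under 0.05. Re-pairing the mice within phase gave 195 to 484 positive genes, with a median of 300, and 1 of 99 re-pairings reached 453. Adjusted over all genes, 0 passed, with a lowest adjusted *p* of 0.55 by the exact test. Of the 473 positive genes, 293 (61.9%) were also positive with phase removed, which is 64.7% of the 453. Without M10 and M12 the mean rho was 0.072, which no longer passed (exact *p* = 0.052), whereas the phase-removed mean of 0.070 did (exact *p* = 0.0083). The phase-removed mean missed the threshold without M4, at 0.072 (exact *p* = 0.054), and without M5, at 0.067 (exact *p* = 0.066).

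Seen mouse by mouse, all 9 tumors correlated above 0 with their own liver when each gene was first standardized over the mice. These correlations across genes ran from 0.019 in M1 to 0.215 in M5, with a median of 0.111. The 72 pairs of a tumor with another mouse's liver ran from -0.195 to 0.249, with a median of -0.014. The own liver ranked first for 4 of 9 tumors (M4, M5, M8 and M10) and among the first 3 for 8 of 9. It ranked first for 3 tumors with phase removed, and for 2 over the 10611 genes with 50 or more counts in every library. The highest of all pairs was the tumor of M12 with the liver of M10, the animals whose tumors held the most hepatocyte RNA, the part of which was not tested. Genes are not independent replicates, so these values are a description.

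**Figure D2:**
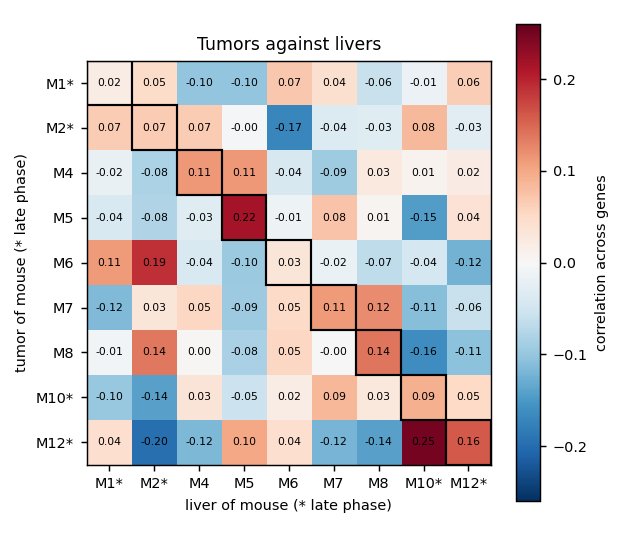
Correlation across genes of each tumor (rows) with each liver (columns), after standardizing every gene over the mice, with late-phase mice starred and own pairs framed. All 9 framed pairs are above 0, from 0.019 to 0.215, while the 72 other pairs lie on both sides of 0.

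Interferon-stimulated genes had the highest median rho of the lists with 3 or more measured genes. Of 21 listed genes 20 were measured in every library, all 20 had a rho above 0 (0.33 to 0.92), and their median rho was 0.64, against 0.10 over all genes. With phase removed the median was 0.66. Of the 20, 5 had an exact *p* under 0.05, set against 3.71% of all genes, and none was negative. *Oas1a* fell below 10 counts in at least 1 library. The members moved as a block within each tissue, with a mean pairwise rho of 0.75 in tumors and 0.58 in livers (0.013 and 0.14 over all genes), so the 20 genes are far from 20 separate observations.

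The same mice were at the ends of the order in both tissues. M5 had the highest tumor level of 13 of the 20 genes and the highest liver level of 15, while over all genes it was highest for 9.16% in the tumor and 30.95% in the liver. M6 had the lowest tumor level of 14 and the lowest liver level of 15, while over all genes it was lowest for 12.98% and 22.1%. On a mean standardized scale the list stood at 1.54 in the tumor and 1.65 in the liver of M5, and at -1.32 and -1.14 in M6. M4 came next to M5, with 0.84 and 0.98. M2 was the exception, at 0.73 in the tumor and -0.30 in the liver. The median rho of the list stayed between 0.51 (without M5) and 0.70 (without M2) when single mice were left out, and it was 0.68 without M10 and M12.

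**Figure D3:**
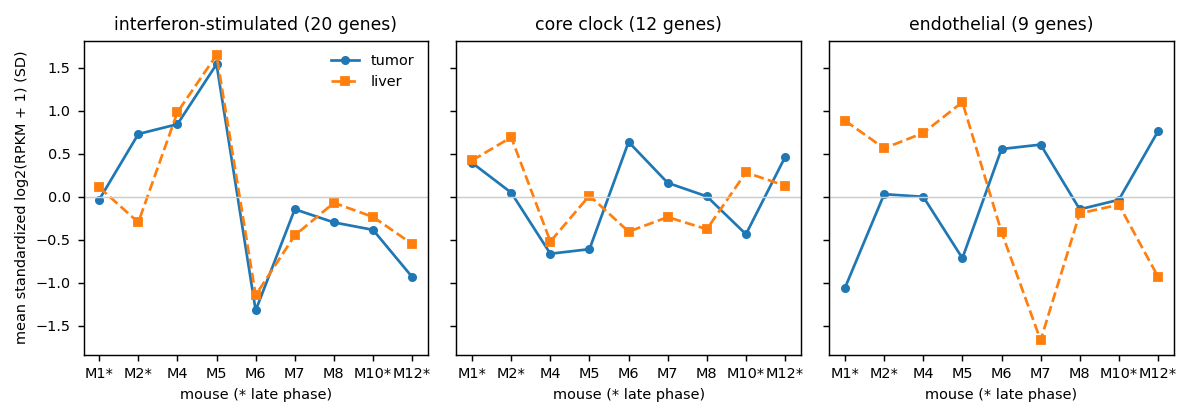
Mean standardized log2(RPKM + 1) of 3 gene lists in the tumor (circles) and liver (squares) of each mouse, in SD units over the 9 mice, with late-phase mice starred. Interferon-stimulated genes peak in M5 and are lowest in M6 in both tissues, the core clock mean is low in M4 in both tissues and unlike between tissues in M6, and endothelial genes are high in the livers of M1, M2, M4 and M5 and low in that of M7.

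The head of the ranking by rho, among the 2549 genes with a 2-fold or larger range in both tissues, held several genes known to be induced by interferon. The 12 highest, with rho from 0.90 to 0.95 and adjusted *p* from 0.50 to 0.59 by the exact test, included *Rnf213*, *Parp14*, *H2-Q5*, *H2-T24*, *Cmpk2*, *Gm4951*, *P2ry1*, *Xaf1*, *Herc6*, *Usp18* and *Parp12*. M5 had the highest liver level of 10 of the 12 and the highest tumor level of 8, beside 30.95% and 9.16% of all genes. With phase removed, 11 of the 12 had an exact *p* under 0.05, the exception being *P2ry1*, whose late and early mice did not overlap in either tissue, so that its pooled rho only describes the phases. Pearson's r without the 2 mice farthest from the tumor median had an exact *p* under 0.05 for 11 of the 12, all but *Gm4951*. The 12 were chosen for their high rho over these same mice, so both counts follow from that choice and are no separate support. Over all genes, 3.55% were positive with phase removed. *H2-Q5*, *H2-T24* and *H2-Q7* belong to the near-identical class I histocompatibility genes, among which reads can be split, so their values are uncertain.

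*Rnf213*, an interferon-inducible E3 ubiquitin ligase, led the ranking. Its tumor level was 40.3 RPKM in M5, 28.0 in M4 and 27.8 in M2, and it fell to 14.5 in M12 and 12.8 in M6. Its liver level was 9.67 RPKM in M5, 7.03 in M4 and 6.93 in M2, and 4.34 in M12 and 4.01 in M6. Sham livers ranged from 2.74 to 5.29 RPKM. The rho was 0.95 (exact *p* = 0.00035, adjusted *p* = 0.50) and Pearson's r on log2(RPKM + 1) was 0.96 (exact *p* = 1.9e-05), which became 0.89 (exact *p* = 0.00079) without M4 and M5, the mice farthest from the tumor median. With phase removed it was 0.96. *LOC102639982* lies on the opposite strand within the gene, and the strand setting of the counting is not given in the sources used here, so reads of the pair cannot be told apart.

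*Cmpk2*, a mitochondrial nucleotide kinase induced by interferon, had the highest phase-removed correlation among the 2549 genes with a 2-fold or larger range, 0.97 (exact *p* = 0.00069). Tumor levels ran from 5.37 RPKM in M6 through a median of 15.9 to 27.8 in M5, and liver levels from 0.809 in M12 through a median of 1.41 to 5.06 in M5. M4 and M8 followed M5 in the liver, at 3.92 and 2.75 RPKM, and their tumors at 22.5 and 15.9 RPKM. The pooled rho was 0.93 (exact *p* = 0.00075) and Pearson's r 0.84 (exact *p* = 0.0062), which was 0.92 (exact *p* = 0.0022) without M6 and M12, the farthest mice in the tumor.

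*Usp18*, which restrains the interferon receptor, had a rho of 0.92, *Oasl2* 0.77 and *Ifit3* 0.73, and the antiviral *Xaf1* and *Herc6* 0.92 each. *Oasl2* was at 0.75 (exact *p* = 0.066) and *Ifit3* at 0.71 (exact *p* = 0.088) without M10 and M12. *Xaf1* ran from 1.12 to 3.28 RPKM in the matched livers and from 0.457 to 1.05 RPKM in the sham livers.

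The apparatus around this response was less even, in lists drawn up after these values had been seen. Of 7 interferon ligand genes 0 reached 10 counts in every library: *Ifnb1* was at 0 counts in every liver, and *Ifng*, the lymphocyte interferon, was at 2.29, 2.09 and 1.44 RPKM in the tumors of M4, M5 and M2, against 0.187 to 1.01 in the others, and at most 0.185 RPKM in any matched liver. Of 8 receptors and signal transducers 0 had an exact *p* under 0.05, and their median rho was 0.075 (-0.060 to 0.19 without single mice). Of 7 sensors of nucleic acid 3 were positive, set against 3.71% of all genes. These were *Tlr3*, *Ifih1* and *Ddx58*, each with a rho of 0.82 (exact *p* = 0.011). *Ifih1* was at 0.64 (exact *p* = 0.14) and *Ddx58* at 0.71 (exact *p* = 0.088) without M10 and M12. Of 5 interferon regulatory factors 0 passed. *Tmem173* and *Mb21d1*, the DNA-sensing pair, had rho of 0.10 and 0.17. All 13 genes of class I antigen presentation were above 0, beside 59.1% of all genes, with a median of 0.55. Against 3.71% of all genes, 2 of the 13 passed, *Tap1* (0.77) and *H2-Q7* (0.75). The 13 moved together within each tissue (mean pairwise rho 0.71 in tumors and 0.55 in livers), so they are not 13 separate observations. Without M10 and M12 the class I median was 0.71, and *H2-Q7* was at 0.64 (exact *p* = 0.14). T and NK cell markers, whose part in these results was not tested, summed to 181 RPKM in the tumor and 27.9 in the liver of M5, but to 183 and 3.35 in M12. Over the other tumors they ran from 39.0 to 92.8 RPKM and over the other livers from 3.14 to 10.8. The 8 measured markers of that list had a median rho of 0.10, which was -0.21 without M5.

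*Cd274* encodes PD-L1, an interferon-inducible immune checkpoint ligand, and was again high in M2 and M5. Tumor levels were 22.8 RPKM in M2 and 20.8 in M5, down to 4.43 in M10, and liver levels were 2.04 RPKM in M5, 1.18 in M2 and 1.11 in M1, down to 0.534 in M12. Sham livers ranged from 0.132 to 0.522 RPKM. The rho was 0.85 (exact *p* = 0.0061) and 0.85 with phase removed (exact *p* = 0.020), and leaving out single mice gave 0.81 to 0.90. Pearson's r was 0.77 (exact *p* = 0.015) and 0.95 without M2 and M10 (exact *p* = 0.0060). Among the 28 measured genes of the study's MDSC set, the genes of myeloid-derived suppressor cells, 5 were positive at an exact *p* under 0.05, set against 3.71% of all genes, among them *Stat5a* (0.85), *Cd274*, *Tlr3* and *Arg1* (0.73). With phase removed 4 were positive, and *Arg1* was at 0.63 (exact *p* = 0.21). *Stat5a* was at 0.75 without M10 and M12 (exact *p* = 0.066). The median of the set was 0.20, and 0.048 without M5. Of the study's 7 immune checkpoint genes 2 were measured in every library, *Cd274* and *Lag3* (0.42).

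**Figure D4:**
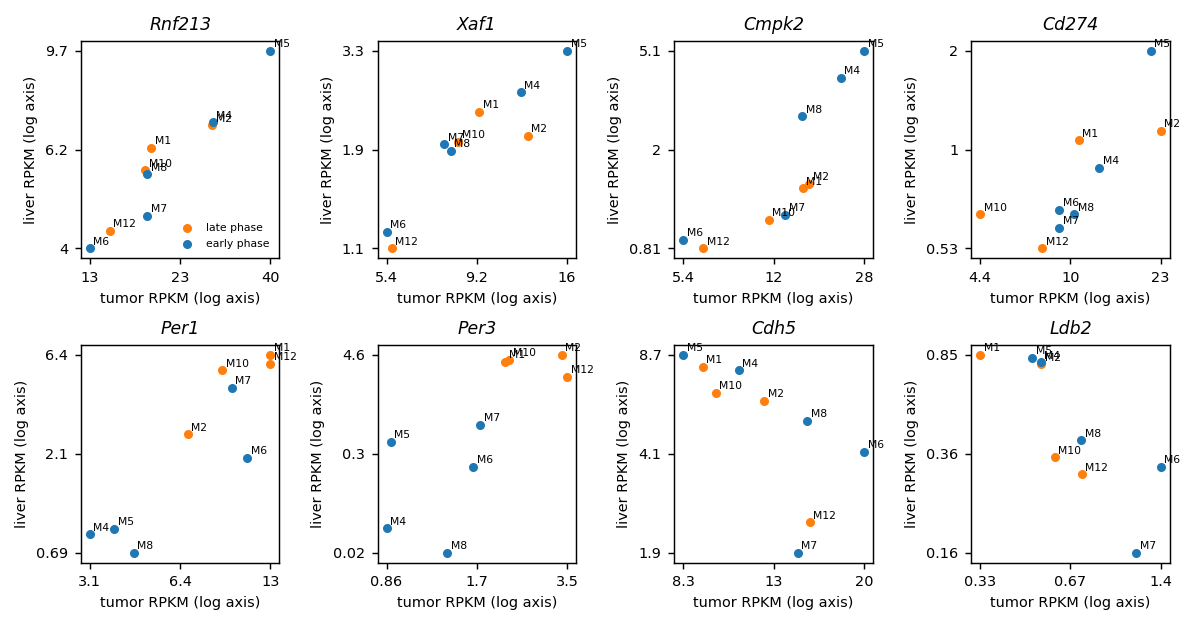
Liver RPKM against tumor RPKM of the same mouse for 8 genes, both axes logarithmic, with late-phase mice in orange and early-phase mice in blue. *Rnf213*, *Xaf1*, *Cmpk2* and *Cd274* have M5 at the top of the liver axis; *Per3* separates into its phases while *Per1* has M6 and M7 above the other early mice in both tissues; *Cdh5* and *Ldb2* slope downward.

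The 12 measured core clock genes had a median rho of 0.47, which was 0.084 with phase removed and 0.31 without M2. Pooled, 4 of them were positive at an exact *p* under 0.05 (*Per1*, *Per3*, *Nr1d2* and *Arntl*), set against 3.71% of all genes. With phase removed *Per1* was, set against 3.55% of all genes. Over all genes, 29 of 12749 (0.227%) had late and early mice that did not overlap in either tissue, and 25 of these moved the same way in both. Of the 19 measured clock and clock output genes, *Arntl*, *Per3*, *Nr1d2*, *Dbp* and *Tef* were among them, and for these the pooled rho only describes the phases: 0.70, 0.82, 0.77, 0.65 and 0.73. With phase removed they were -0.20, 0.27, 0.067, -0.40 and -0.067. *Arntl* and *Nr1d2* were at 0.61 each (exact *p* = 0.17) and *Tef* at 0.68 (exact *p* = 0.11) without M10 and M12. Liver *Dbp* defined the phases, so its own split in the liver is no result. *Npas2*, *Ciart* and *Hlf* fell below 10 counts in at least 1 library.

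*Per3*, a repressor of the clock loop, was at 2.15, 3.32, 2.22 and 3.46 RPKM in the tumors of late mice M1, M2, M10 and M12 and at 0.861 to 1.77 in early ones. In the liver it was at 3.75, 4.56, 3.96 and 2.48 RPKM in the same late mice and at 0.0203 to 0.678 in early ones. The tumors thus spanned a 4.03-fold range against a 224-fold range in the livers. The liver range rests on its lowest value, in M8, which came from 10 counts, the least that the filter allowed, so its size is uncertain.

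*Per1*, its paralog and an early responder to light and glucocorticoids, had an exact *p* under 0.05 with phase removed as well as pooled. Tumors were at 13.4 RPKM in M1 and M12, 11.1 in M6, 9.77 in M7 and 9.03 in M10, and at 3.06 in M4, 3.73 in M5 and 4.38 in M8. Livers were at 6.38 RPKM in M1, 5.77 in M12, 5.37 in M10 and 4.41 in M7, and at 0.844 in M4, 0.900 in M5 and 0.686 in M8. The early mice M6 and M7 were above the early mice M4, M5 and M8 in both tissues. The rho was 0.83 (exact *p* = 0.0083), and 0.80 with phase removed (exact *p* = 0.024). Pearson's r was 0.89 (exact *p* = 0.0032) and 0.82 without M4 and M5 (exact *p* = 0.022). The other measured clock genes had pooled values from *Per2* at 0.62 through *Clock* (0.48), *Cry2* (0.47), *Cry1* (0.37, and 0.38 with phase removed), *Nr1d1* (0.20) and *Rora* (0.033) to *Bhlhe40* (-0.18) and *Bhlhe41* (-0.22), none with an exact *p* under 0.05. The output genes *Usp2*, *Nfil3*, *Nampt*, *Wee1* and *Lonrf3* ran from 0.38 to -0.33.

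The promoters of the genes that led each ranking are shown because members moved together: the 250 bases before the RefSeq start (GRCm38.p6), 5′ to 3′, in lower case with motif matches in capitals. The table's build, mm10, is the same assembly.
Per1, chr11:69098699-69098948, strand plus: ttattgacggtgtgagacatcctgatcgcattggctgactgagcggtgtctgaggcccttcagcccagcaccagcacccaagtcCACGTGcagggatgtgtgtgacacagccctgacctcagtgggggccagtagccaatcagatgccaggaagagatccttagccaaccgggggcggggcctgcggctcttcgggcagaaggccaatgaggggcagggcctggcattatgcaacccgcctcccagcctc
Per3, chr4:151044666-151044915, strand minus: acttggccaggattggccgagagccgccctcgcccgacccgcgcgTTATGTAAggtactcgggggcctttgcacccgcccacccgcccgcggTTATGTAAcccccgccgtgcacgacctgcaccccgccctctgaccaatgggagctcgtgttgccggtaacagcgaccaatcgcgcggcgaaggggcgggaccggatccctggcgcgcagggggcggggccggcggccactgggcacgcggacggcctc
Rnf213, chr11:119389849-119390098, strand plus: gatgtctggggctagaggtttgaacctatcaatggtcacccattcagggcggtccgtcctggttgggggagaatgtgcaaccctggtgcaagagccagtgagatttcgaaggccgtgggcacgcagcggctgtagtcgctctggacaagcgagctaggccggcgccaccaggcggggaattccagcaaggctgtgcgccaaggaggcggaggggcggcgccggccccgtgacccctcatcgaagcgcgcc
Cmpk2, chr12:26468965-26469214, strand plus: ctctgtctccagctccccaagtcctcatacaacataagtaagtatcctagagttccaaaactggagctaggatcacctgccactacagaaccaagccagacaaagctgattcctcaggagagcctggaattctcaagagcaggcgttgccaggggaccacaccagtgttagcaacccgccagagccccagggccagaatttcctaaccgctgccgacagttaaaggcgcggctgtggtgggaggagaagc
The capitals in *Per1* mark an E-box (CACGTG), the element bound by CLOCK and BMAL1, 166 bases before the start. Those in *Per3* mark 2 D-boxes (TTATGTAA), the element of DBP and TEF, 205 and 158 bases before the start. Of 32817 promoter windows of this length, 6.02% held an E-box and 0.817% a D-box on either strand. For *Per1*, which has 2 windows, the one nearer to the gene's start in the table was taken, and it lies 3811 bases from that start. *Rnf213* and *Cmpk2* held no match to these, nor to the ROR element TAGGTCA, the heat shock form GAANNTTC, the glucocorticoid receptor site AGAACA, the interferon form GAAANNGAA or the STAT form TTCNNNGAA, which says only that these letters are not in this window. The last 2 were added after values had been seen. The shares of all windows with them were 2.24%, 6.69%, 16.1%, 7.12% and 7.01%.

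Genes of the heat shock and cold response, mostly chaperones that protect unfolded proteins, were above 0 in 11 of 12 cases, beside 59.1% of all genes. Their median was 0.42, and 0.25 without M6. The list includes the cold-response genes *Cirbp* (0.53) and *Rbm3* (0.27), which are not chaperones. Against 3.71% of all genes, 2 of the 12 passed. These were *Hsph1* (0.72, exact *p* = 0.037) and *Dnaja1* (0.73, exact *p* = 0.031), which also passed with phase removed (0.74 and 0.75). Pearson's r of *Hsph1* was 0.81 (exact *p* = 0.0090) and 0.70 (exact *p* = 0.080) without M5 and M7, and that of *Dnaja1* 0.71 (exact *p* = 0.033) and 0.60 (exact *p* = 0.14) without M4 and M7. Without M10 and M12, rho was 0.64 for *Hsph1* (exact *p* = 0.14) and 0.68 for *Dnaja1* (exact *p* = 0.11). *Hspa8* was at 0.63 without passing. The endoplasmic chaperone *Hspa5* and the ubiquitin-like *Herpud1* were at 0.73 each, and with phase removed at 0.67 (exact *p* = 0.083) and 0.61 (exact *p* = 0.093). Their own list, unfolded protein and integrated stress, had 10 of 16 genes above 0, near the 59.1% of all genes. Of the 16, 2 were positive and 1, *Atf4* (-0.70), negative, set against 3.71% and 1.58% of all genes. With phase removed 0 were positive and 1 was negative. M7 had the highest liver level of *Hspa5*, *Herpud1*, *Hsph1* and *Dnaja1*. *Dnaja1* was at 38.2 to 106 RPKM in the matched livers and at 116 to 180 RPKM in the sham livers. *Ier3*, an immediate early survival gene, was at 0.73, and *Fdft1*, the squalene synthase of cholesterol synthesis, at 0.73. Without M10 and M12, *Hspa5* and *Ier3* were at 0.75 each (exact *p* = 0.066) and *Fdft1* at 0.71 (exact *p* = 0.088).

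Endothelial genes had a negative median, so that mice with more of the leading ones in the liver had less in the tumor. The median rho over 9 measured markers was -0.45, -0.26 without M6, and -0.58 with phase removed. Of the 9, 2 were negative at an exact *p* under 0.05, set against 1.58% of all genes, and 0 were positive, with 3 negative once phase was removed. *Cdh5*, the cadherin of endothelial junctions, was at 8.33 RPKM in the tumor of M5 and 9.12 in that of M1, the lowest, and at 19.6 in that of M6. In the liver it was highest in M5 and M1, at 8.66 and 7.92 RPKM, and lowest in M12 and M7, at 2.44 and 1.94. Its rho was -0.87 (exact *p* = 0.0045) and stayed between -0.95 and -0.81 without single mice, and it was -0.89 without M10 and M12. Pearson's r was -0.72 (exact *p* = 0.029), and -0.78 without M5 and M6 (exact *p* = 0.038). *Pecam1*, the platelet endothelial adhesion molecule, was at -0.80 (exact *p* = 0.014), with a Pearson's r of -0.78 (exact *p* = 0.015) that became -0.62 (exact *p* = 0.13) without M1 and M12. *Cldn5*, a tight junction protein, was at -0.68. *Kdr*, the main VEGF receptor, was at 0.083 and *Eng* at 0.40, so not every marker followed. In the livers the 9 markers moved together (mean pairwise rho 0.75), with M7 lowest in all 9, but in the tumors they did so less (0.24). The summed level of the list, *Stab2* included, was 20.1 RPKM in the liver of M7 and 41.5 to 75.1 in the others but M12 (28.1).

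*Ldb2*, a LIM-domain-binding cofactor, had the lowest rho in the set with a wide range, at -0.93 (exact *p* = 0.00075) and -0.95 with phase removed. Pearson's r was -0.80 (exact *p* = 0.0050), and -0.82 without M6 and M7 (exact *p* = 0.0062). Its tumor level was 0.327 RPKM in M1 and 1.39 in M6, and its liver level 0.849 in M1 and 0.155 in M7. It overlaps several noncoding genes and was low in both tissues, with 38 to 200 counts in the matched libraries. The other 5 lowest were *4930556M19Rik* and *Rnf144b* (-0.92 each), *Slc1a4* (-0.88), *Cdh5* and *Slc7a5* (-0.85). *Slc7a5*, the large neutral amino acid transporter, was at 71.2 RPKM in the tumor and 0.6001 in the liver of M2, and at 32.7 and 3.24 in M6. In the list of amino acid transporters, drawn up after this was seen, *Slc38a2* was at 0.82 and the median was -0.37, which was -0.12 without M2. *Slc1a4* separated by phase in both tissues, and its phase-removed value was -0.53.

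Red cell precursor genes had the lowest list median, -0.57 over 5 measured genes, all below 0, and -0.55 with phase removed, but 0 passed. *Hba-a1* was at -0.68 and *Alas2*, the first enzyme of erythroid heme synthesis, at -0.67. Other single genes passed below 0: *Mrc1*, the macrophage mannose receptor (-0.75), *Saa2* (-0.73), *Acaca* (-0.72), *Cdc20* (-0.70) and *Atf4* (-0.70). With phase removed they were at -0.76, -0.37, -0.69, -0.64 and -0.49, the first with an exact *p* under 0.05. Without M10 and M12, *Saa2* was at -0.71 (exact *p* = 0.088), *Cdc20* at -0.75 (exact *p* = 0.066) and *Atf4* at -0.64 (exact *p* = 0.14). Lists for neutrophils, hypoxia, PPAR alpha targets, glucocorticoid stress and hepatocytes had 0 genes with a pooled exact *p* under 0.05. The same held for fibroblasts, B and plasma cells, mitochondrially encoded genes and ribosomal proteins. The pooled medians of these lists lay from -0.17 to 0.22. With phase removed, glucocorticoid stress and ribosomal proteins had 1 positive gene each and PPAR alpha targets 1 negative gene, set against 3.55% and 1.57% of all genes. Lists for smooth muscle, skeletal muscle, adipocytes, pancreatic acinar cells and intestinal epithelium had 4 or fewer genes measured in every library and are not read.

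**Figure D5:**
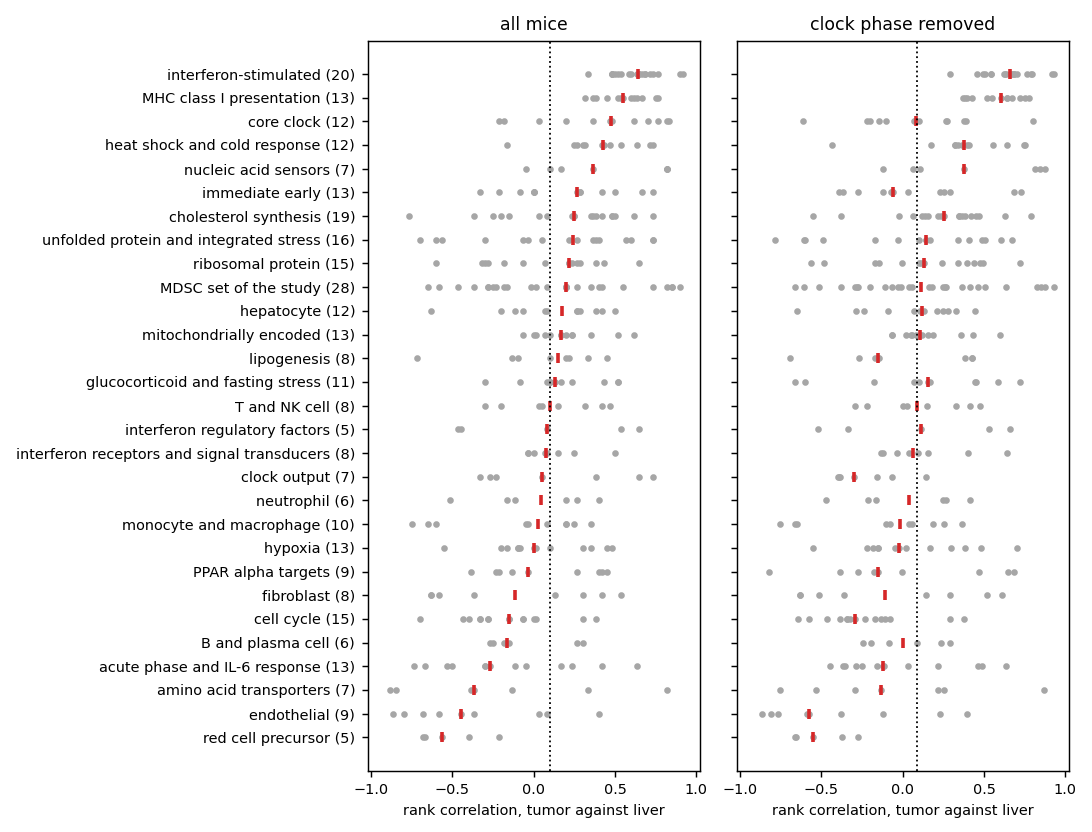
Rank correlation of tumor and liver for each measured member (gray) of the lists with 5 or more such members, counted in brackets, with list medians in red, over all mice (left) and with clock phase removed (right). The dotted line is the median of all 12749 genes, 0.10 and 0.087; interferon-stimulated genes are at the top in both panels, and the core clock median drops from 0.47 to 0.084.

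A last group had high correlations but narrow ranges, and these genes were singled out after their values were seen. *Zc3hav1*, the zinc-finger antiviral protein, had the highest rho of all genes, 0.98 (exact *p* = 5.0e-05, adjusted *p* = 0.35), over tumor levels of 13.5 to 20.98 and liver levels of 3.601 to 7.55 RPKM. M5 was highest and M6 lowest in both tissues. *Nmi*, an interferon-induced partner of STAT proteins, was at 0.92. *Becn1*, *Cox5a*, *Psme3* and *Sdccag3* were at 0.97, and *Haghl* at -0.97. The 2549 wide-ranging genes had a median rho of 0.067 with 4.24% positive and 2.51% negative, and the other 10200 had a median of 0.10 with 3.58% and 1.35%. Phase removal brought 2 further genes into the ranking of wide-ranging genes: *Atp8b1*, a phospholipid flippase, at 0.94 (0.72 pooled), and *Gpd1*, the cytosolic glycerol phosphate dehydrogenase, at -0.92 (-0.38 pooled). *Sema6d*, at -0.91, completed the 4 lowest.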

How the data were processed

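Poly(A) RNA-seq libraries (Trizol, DNase I, NEBNext Ultra) came from 9 primary tumors, their 9 matched livers and 5 sham livers. The submitters' processing notes list HISAT2, HISAT and HTSeq 0.6.0 and the build mm10, without roles. The authors deposited raw counts per gene and RPKM per gene; RPKM already carries gene length and library total, and both were used as deposited. Of 46 columns of counts and RPKM, 0 belonged to no labelled sample. Tumor and liver were paired by the mouse number in the labels, which names 1 animal.

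Levels were log2(RPKM + 1). Genes needed 10 counts in all 18 libraries, which had 0 tied genes. Spearman's rho, exact permutation *p* over 362880 pairings (2880 within phase; smallest possible *p* 0.000347) and Benjamini-Hochberg adjustment were computed in Python 3.11.15 (numpy 2.4.6 for arrays, scipy 1.17.1 for ranks), and checked on simulated data. Alternatives used Pearson's r, edgeR 4.0.16 TMM and DESeq2 1.42.0 size factors in R 4.3.3, other filters and left-out mice. Named genes were the 12 highest and 6 lowest rho and the 10 highest and 4 lowest phase-removed values among genes with a 2-fold range in both tissues, all measured clock genes, and up to 4 genes with exact *p* under 0.05 of each list. Members, rule and 30 lists were chosen with earlier results of these data known, and 6 lists after the values were seen. Counts give counting error only, and *p*-values measure where the own-mouse pairing stands among re-pairings of these mice. Across sham livers no test was made. A few items that the rule or lists name are not reported here.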

Additional observations from a re-analysis of the deposited data

Results flagged for a closer look

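Among 130 sets of 9 values checked, 2 held 1 mouse whose gap to the others exceeded Dixon's 95% limit, which is 1.54% where chance alone marks about 1 in 20. *Hspa5* in the liver of M7 was at 1162.2 RPKM, with the other matched livers at 260.8 to 472.9 and sham livers at 587.9 to 1278.6. *Mrc1* in the tumor of M4 was at 12.8 RPKM, the lowest tumor, against a median of 49.1 and a highest value of 92.6 RPKM.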

How the results depend on the processing

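Without the pairing (no replicate block), tumors correlated with the livers of other mice at a mean of -0.011. Because ranks are centered over the 9 mice, this value is fixed by the own-liver mean of 0.087 and is no separate result. Testing genes with no filter on low counts raised the positive count to 816, the negative count to 384 and the phase-removed positive count to 703, since more genes were tested. Leaving out M10 and M12, an alternative chosen after seeing the data, gave a mean rho of 0.072 (exact *p* = 0.052). Leaving out 1 mouse at a time gave a phase-removed mean of 0.057 to 0.085, which missed the threshold without M4 and without M5. The cause was not tested. Pearson's r gave 646 positive genes and TMM scaling 535. The count with an adjusted *p* under 0.05 was 0 under every alternative run. Of 105 alternative values of the counts and means, 98 kept their side or size, and of 833 for named genes 677 did, 156 lost the threshold and 0 changed sign. The number of mice limits single-gene calls, as the smallest exact *p* shows. List medians moved by more than their members' SD in 68 of 625 values.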

Other observations

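Skeletal muscle genes were high in both tissues of M4. *Acta1*, skeletal actin, was at 206 RPKM in the tumor and 9.11 in the liver of M4, and *Ckm*, muscle creatine kinase, at 113 and 7.06 RPKM. *Acta1* was also at 48.2 RPKM in the tumor of M7, whose liver was at 0.0160 RPKM, and at 29.7 RPKM in the sham liver C1. The other tumors were at 0.0234 to 0.934 and the other matched livers at 0 to 0.673 RPKM. *Cd8a*, the coreceptor of cytotoxic T cells, was at 2.18 RPKM in the liver of M5 and at 0.0794 to 0.408 in the other matched livers, and its tumor level was highest in M2 and M5, at 6.38 and 5.85 RPKM.

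*Asns*, the asparagine synthetase of the integrated stress response, was at -0.57 pooled and -0.79 with phase removed (exact *p* = 0.027). The livers of M7 and M6 were highest, at 3.71 and 2.30 RPKM, and the tumors of the same mice were the 2 lowest, at 59.7 and 51.8 RPKM.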
